A study of Mus musculus with 6 samples.

Results

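The seminal vesicle secretion (Svs) genes encode the main proteins of mouse seminal plasma, and the question here was how the 7 genes Svs1, Svs2, Svs3a, Svs3b, Svs4, Svs5 and Svs6 read in the testis of mice that overexpress aromatase. Their probes were taken as all those, other than control probes, that the scanner files name with 1 of these symbols. That gave 8 probes, 2 of them for Svs2, of 55681 probes on the array. The array carries 34844 distinct gene names, clone and transcript names included. The 7 genes were chosen on their intensities in AROM+ and WT testes, with the difference already known, so that difference is described below and was not tested.

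Each array held labelled total RNA of 1 whole testis from a male mouse aged 5 months on a C57BL/6 genetic background. The WT group had 3 testes of wild-type genotype, and the AROM+ group had 3 testes of transgenic mice that overexpress aromatase, the enzyme of oestrogen synthesis from androgens. No other allele or agent is named for either group. The promoter of the transgene, the species of its sequence and the number of founder lines are not given in the sources used here. The replicate is a single testis, so every SD below is the spread between testes. An error given after a difference is the SE of the limma fit. That SE combines the probe's own spread between testes with a variance estimated from all fitted probes. A whole testis is a mixture of cells, and fewer cells of a type and less RNA per cell cannot be told apart.

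Svs proteins are made by the androgen-dependent epithelium of the seminal vesicle, an accessory gland. After ejaculation, the prostate enzyme transglutaminase 4 crosslinks several of them into the copulatory plug, and Svs2, the counterpart of human semenogelin, also coats sperm. Except for Svs1, whose protein resembles amine oxidases and whose gene is on chromosome 6, the genes lie side by side on chromosome 2 next to genes for protease inhibitors of the Wfdc family, and they arose by duplication. The testis is not their usual site.

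The 250 bases before the start of 5 of the genes are shown so that the readings in the testis, alike or not, can be set beside them. They come from RefSeq (GRCm38.p6), where all 7 genes matched by symbol, and are written 5′ to 3′ on each gene's own strand. Capitals mark TATAAA, the core of a TATA box, and AGAACA or its reverse complement TGTTCT, a hexamer of the androgen response element. The windows are Svs5 chr2:164332515-164332764 on the plus strand, Svs6 chr2:164316501-164316750 on the plus strand, Svs3a chr2:164289017-164289266 on the plus strand, Svs3b chr2:164256644-164256893 on the minus strand and Svs4 chr2:164278308-164278557 on the minus strand.
Svs5: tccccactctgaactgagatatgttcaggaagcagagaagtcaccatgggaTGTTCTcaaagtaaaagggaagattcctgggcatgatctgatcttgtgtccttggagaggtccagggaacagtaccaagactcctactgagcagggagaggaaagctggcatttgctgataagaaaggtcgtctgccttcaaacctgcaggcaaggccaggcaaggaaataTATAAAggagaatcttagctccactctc
Svs6: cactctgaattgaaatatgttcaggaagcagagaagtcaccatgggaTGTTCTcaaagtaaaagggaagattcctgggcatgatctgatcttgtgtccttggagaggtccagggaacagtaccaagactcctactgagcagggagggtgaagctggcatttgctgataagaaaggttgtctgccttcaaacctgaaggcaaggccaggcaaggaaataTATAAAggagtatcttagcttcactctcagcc
Svs3a: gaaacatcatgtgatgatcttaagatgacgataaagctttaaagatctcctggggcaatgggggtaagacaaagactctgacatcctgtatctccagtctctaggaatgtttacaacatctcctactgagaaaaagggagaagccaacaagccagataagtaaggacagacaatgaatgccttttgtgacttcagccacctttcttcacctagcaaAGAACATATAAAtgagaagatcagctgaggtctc
Svs3b: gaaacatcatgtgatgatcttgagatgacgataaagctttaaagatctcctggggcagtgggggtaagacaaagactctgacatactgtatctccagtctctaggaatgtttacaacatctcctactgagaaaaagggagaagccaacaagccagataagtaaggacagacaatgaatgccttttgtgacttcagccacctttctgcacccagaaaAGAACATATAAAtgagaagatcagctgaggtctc
Svs4: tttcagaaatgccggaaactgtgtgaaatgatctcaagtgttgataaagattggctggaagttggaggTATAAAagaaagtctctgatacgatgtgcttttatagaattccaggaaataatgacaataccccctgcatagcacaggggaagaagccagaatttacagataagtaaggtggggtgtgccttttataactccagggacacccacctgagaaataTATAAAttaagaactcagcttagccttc
Upstream, Svs5 and Svs6 are nearly identical, and so are Svs3a and Svs3b, while Svs4 has no near-identical partner among the members.

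The alignments put numbers on this likeness. The windows of Svs5 and Svs6 were identical at 237 of 246 aligned bases (96.3%), and those of Svs3a and Svs3b at 244 of 250 (97.6%). The other 19 of the 21 pairs among the 7 genes lay between 61.4% and 72.4%. Svs4 was identical to Svs3a, Svs3b, Svs5 and Svs6 at 66.5% to 69.8%. Svs3a and Svs3b were less like Svs5 and Svs6, at 63.2% to 64.4%, so Svs4 was not the most divergent of these genes. TATAAA, searched on the gene's strand, began 28 bases before the start in Svs3a, Svs3b, Svs4 and Svs5 and 32 bases before it in Svs6. In Svs4 it occurred again 182 bases upstream, and in Svs2 it occurred 236 and 205 bases upstream. It was in 6 of the 7 windows and in 7.59% of all 32851 promoter windows of the same length. The androgen hexamer, searched on both strands without overlap with TATAAA, began 199 bases upstream in Svs5, 203 in Svs6, 34 in Svs3a and Svs3b and 127 in Svs1. It was in 5 of the 7 windows and in 16.1% of all windows. In Svs3a and Svs3b the hexamer AGAACA runs straight into TATAAA. The full palindromes, AGAACA, any 3 bases and TGTTCT for the androgen element and GGTCA, any 3 bases and TGACC for the oestrogen element, were searched on both strands and were in none of the 7 windows, against 0.00913% and 0.0639% of all windows. A match or its lack says only which letters are in the window.

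**Figure D1:**
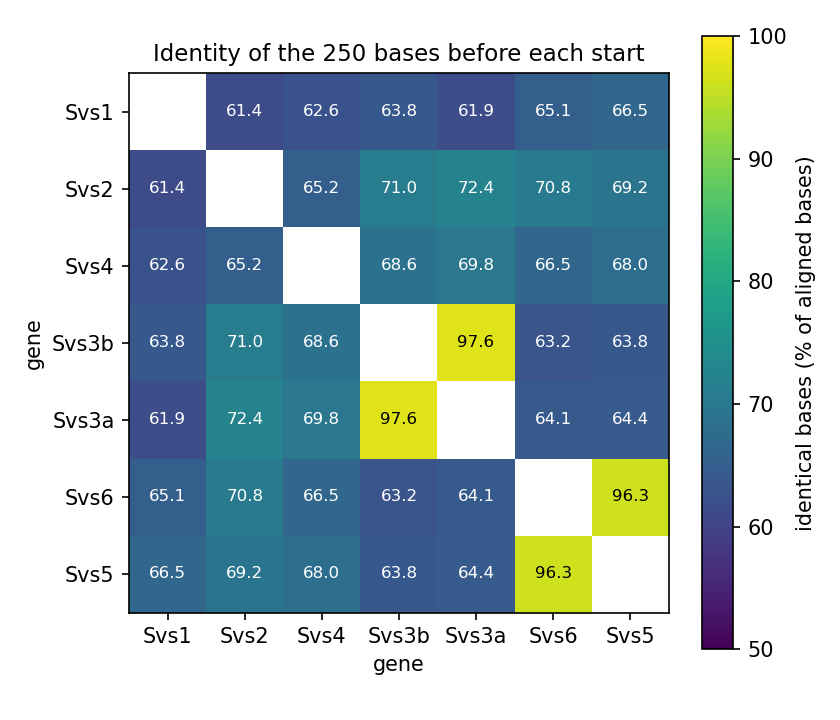
Identity of the 250 bases before the start of each of the 7 genes, as the percent of aligned bases that are the same, for every pair (both axes list the genes, and colour gives the percent). Svs5 with Svs6 at 96.3% and Svs3a with Svs3b at 97.6% stand above the other pairs, which reach at most 72.4%.

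The probes that read these genes are 60-base oligos, and the first 30 bases of 5 of them show that the genes of each pair were read at unlike sequence, with no letters in capitals.
Svs5: agccggtgatgtcttcaggattcaagtttc
Svs6: ccagactgcggttcacggatttattttatt
Svs3a: ctcttgtagtgttacacatactagaaaaca
Svs3b: ctttctaatgttgcagcaacctcacacagg
Svs4: ctagcagttctgatggttctaatatggaag
The longest run of bases that the Svs5 and Svs6 probes share is 5, and that of the Svs3a and Svs3b probes is 6. Full transcripts were not used here, so how far a probe binds the transcript of another Svs gene was not tested.

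All 6 arrays lay on 1 slide, with the WT testes in one row and the AROM+ testes in the other, so slide row and genotype cannot be told apart. Replicates 1, 2 and 3 of both genotypes lay in slide columns 1, 2 and 3. Between 76.6% and 80.6% of probes were well above background on an array, and no spot was saturated. The filter on dim probes kept the 42637 that cleared background in every testis of one genotype or both. Of these, limma (Benjamini-Hochberg adjusted p under 0.05) called 6008 (14.1%) higher and 12911 (30.3%) lower in AROM+. The median probe differed by −0.19 on the log2 scale. The higher share of the calls was 31.8%, and it was 46.4% when arrays were scaled on probes well above background everywhere, 41.8% after quantile normalization and 43.9% with spike-in scaling. Germ cell markers (Prm1, Prm2, Tnp1, Tnp2, Ddx4) were well above background on every array, and 2 of the 5 fell by the test, Tnp2 by 0.28 (limma adjusted p = 0.0383) and Ddx4 by 0.51 (limma adjusted p = 0.0354). The germ cell sum of signals relative to the 75th percentile was 143 to 211 in WT and 126 to 135 in AROM+, and its part in the differences below was not tested. The probe of the mouse aromatase gene Cyp19a1 read −2.91 ± 0.32 in WT and −3.21 ± 0.20 in AROM+ (SD, n = 3 each, in log2 units from the 75th percentile of an array; limma adjusted p = 0.223), and whether it binds the transgene's RNA was not tested.

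Svs5 and Svs6, the adjacent genes with near-identical upstream sequence, had the largest differences among the 4 members that passed the filter on dim probes. Both were higher in every AROM+ testis than in any WT testis, Svs5 about 9.04-fold and Svs6 about 24.1-fold. Both encode small secreted proteins of seminal vesicle fluid.

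The Svs5 probe (chr2:164159979-164160038, plus strand, NCBI37/mm9, transcript NM_009301) had processed signals, the background-corrected spot intensities, of 7797, 8658 and 6605 in the WT testes. It had 77576, 89042 and 69522 in the AROM+ testes. On the log2 scale relative to each array's 75th percentile, used for all levels from here on, it read 0.79, 1.23 and 0.63 in WT and 3.84, 4.32 and 4.03 in AROM+. The lowest AROM+ testis lay 2.61 above the highest WT testis, a gap wider than the range within either group. The means were 0.89 ± 0.31 in WT and 4.06 ± 0.25 in AROM+ (SD, n = 3 each), a difference of 3.18 ± 0.19 (SE of the fit). Among the 42637 probes, 0.307% had a larger difference upward.

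The Svs6 probe (chr2:164144071-164144130, plus strand, NM_013679) had processed signals of 479, 594 and 356 in WT and 15599, 17323 and 7619 in AROM+. The log2 levels of Svs6 came to −3.23, −2.64 and −3.58 in WT and 1.52, 1.96 and 0.84 in AROM+. Again the groups did not overlap, and the gap between them was 3.47. The means were −3.15 ± 0.48 and 1.44 ± 0.57 (SD, n = 3 each), a difference of 4.59 ± 0.34 (SE), with 0.0821% of probes further up. In both genes replicate 2 was the highest testis of its group, in WT as in AROM+.

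For the non-overlap of these probes the background is high: 17.8% of the 42627 kept probes with a value on every array were higher in every AROM+ testis than in any WT testis, and 40.3% were lower in every AROM+ testis, 58.1% in all. Since the members were chosen for this contrast, nothing is read from their count.

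**Figure D2:**
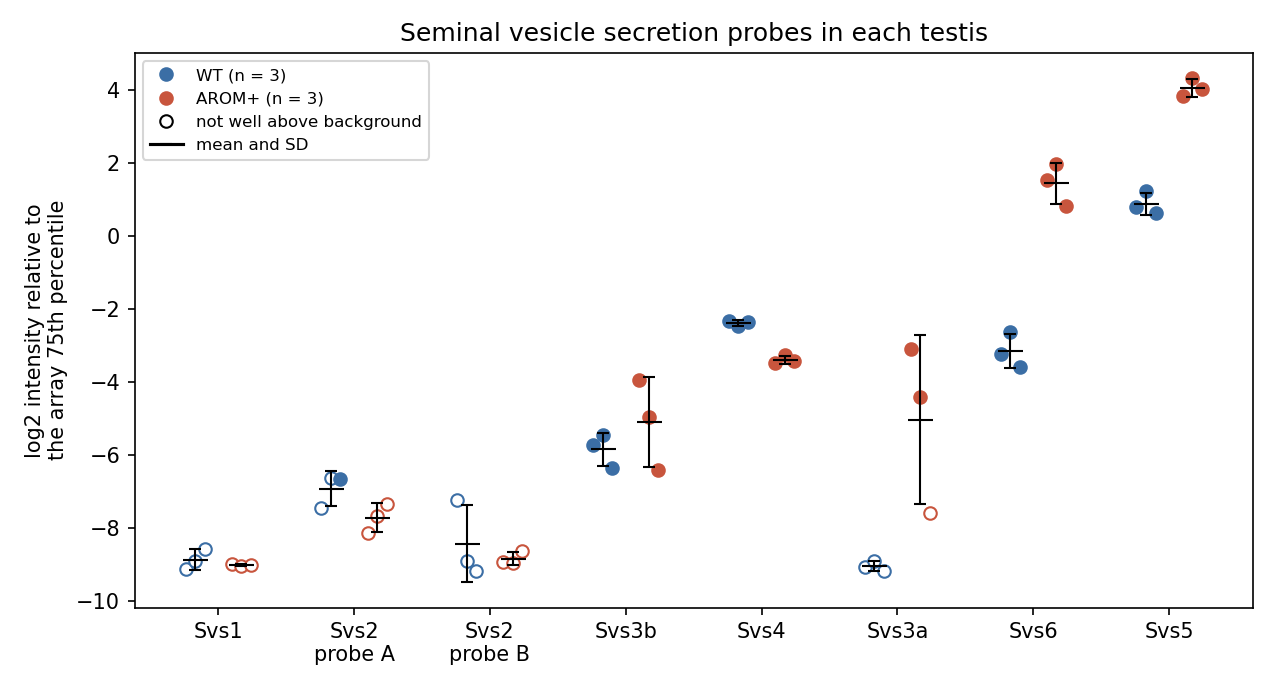
Log2 intensity of each Svs probe relative to its array's 75th percentile (vertical axis) in the 3 WT and 3 AROM+ testes, ordered along the chromosome after Svs1; 1 point is 1 testis, bars are mean and SD, and open points were not well above background. Svs2 probe A is the one at chr2:164061667-164061726 and probe B the one at chr2:164062555-164062614; the AROM+ points of Svs5 and Svs6 sit above all WT points, those of Svs4 below, and those of Svs3a spread over 4.50.

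Svs3a and Svs3b, the other pair with near-identical upstream sequence, encode clot proteins. The Svs3a probe (chr2:164117163-164117222, plus strand, NM_021363) had processed signals of 8.45, 7.71 and 7.42 in WT, not well above background on any array. It had 640, 209 and 22.2 in AROM+, well above background in replicates 1 and 2 and not in replicate 3. Its WT level was therefore not measured, and the size of the difference is uncertain. A rough size of 3.96-fold sets the mean over all 3 AROM+ testes against the mean floor of the WT arrays. An array's floor is its lowest signal of any probe well above background. The figure is not a strict bound, because AROM+ replicate 3, at −7.59, lay below the WT floors of −6.95, −6.70 and −7.39. The 3 AROM+ log2 levels of −3.09, −4.41 and −7.59 spread over 4.50, all above the highest WT testis, and the difference was 4.01 ± 1.09 (SE, in the fit without the filter on dim probes). Without AROM+ replicate 1 it was 3.04, and without AROM+ replicate 3 it was 5.29.

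The Svs3b probe (chr2:164080323-164080382, minus strand, NM_173377) was well above background on all 6 arrays. It had processed signals of 84.8, 83.8 and 52.4 in WT, against 351, 144 and 50.4 in AROM+. On the log2 scale the WT testes read −5.73, −5.46 and −6.34, and the AROM+ testes read −3.95, −4.95 and −6.40, so AROM+ replicate 3 lay below all WT testes and the groups overlapped. The difference of 0.74 ± 0.59 (SE) was smaller than the SD of 1.23 within AROM+. It ran from 0.17 without AROM+ replicate 1 to 1.40 without AROM+ replicate 3. Svs3a and Svs3b had the same order of the AROM+ testes, replicate 1 highest and replicate 3 lowest. In Svs5 and Svs6 AROM+ replicate 2 was highest, and the lowest was replicate 1 in Svs5 and replicate 3 in Svs6.

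Svs4, a small basic protein of seminal vesicle fluid, went the other way. Its probe (chr2:164102838-164102897, minus strand, NM_009300) had processed signals of 892, 667 and 833 in WT and 485, 460 and 400 in AROM+. On the log2 scale the WT testes read −2.33, −2.47 and −2.35, and the AROM+ testes read −3.48, −3.27 and −3.41. Every AROM+ testis lay below every WT testis, and the testes of a group lay within 0.21 of each other. The means were −2.39 ± 0.07 and −3.39 ± 0.11 (SD, n = 3 each), a difference of −1.004 ± 0.10 (SE), or 2.01-fold lower in AROM+, and 1.59% of probes had a larger difference downward. Set against the median probe, which was itself lower in AROM+, the difference was −0.82. The Svs4 gene lies between Svs3b and Svs3a.

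Svs2 and Svs1 gave almost no signal. The Svs2 probe at chr2:164061667-164061726 (minus strand, NM_017390) had processed signals of 25.6, 37.3 and 41.9 in WT and 19.4, 21.9 and 26.2 in AROM+, well above background only in WT replicate 3. The second Svs2 probe, at chr2:164062555-164062614, read 30.1, 7.77 and 7.34 in WT and 11.2, 8.88 and 10.7 in AROM+ and was never well above background. The Svs1 probe (chr6:48941662-48941721, plus strand, NM_172888) was never well above background either, with 7.996, 7.79 and 11.2 in WT and 10.8, 8.52 and 8.19 in AROM+. Neither gene had a level that could be compared between the genotypes. In all, 27 of 48 readings of the 8 probes were well above background. Only the probes of Svs3b, Svs4, Svs5 and Svs6 passed the filter on dim probes.

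The members lie along chromosome 2 in this order. From the Svs2 probes, Svs3b and Svs4 follow on the minus strand, and then Svs3a, Svs6 and Svs5 on the plus strand. Counted from the Svs5 probe in NCBI37/mm9 coordinates, the Svs4 probe lies at −57.1 kb, the Svs3a probe at −42.8 kb and the Svs6 probe at −15.9 kb. No probe of another gene lies between the Svs2 and the Svs5 probes. Of the plus-strand members, Svs6 and Svs5 were higher in AROM+, and so was Svs3a, whose WT level was not well above background. The minus-strand members were lower (Svs4), overlapped (Svs3b) or were too dim to compare (Svs2). The members were chosen on this contrast, and a link with the strand was not tested.

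**Figure D3:**
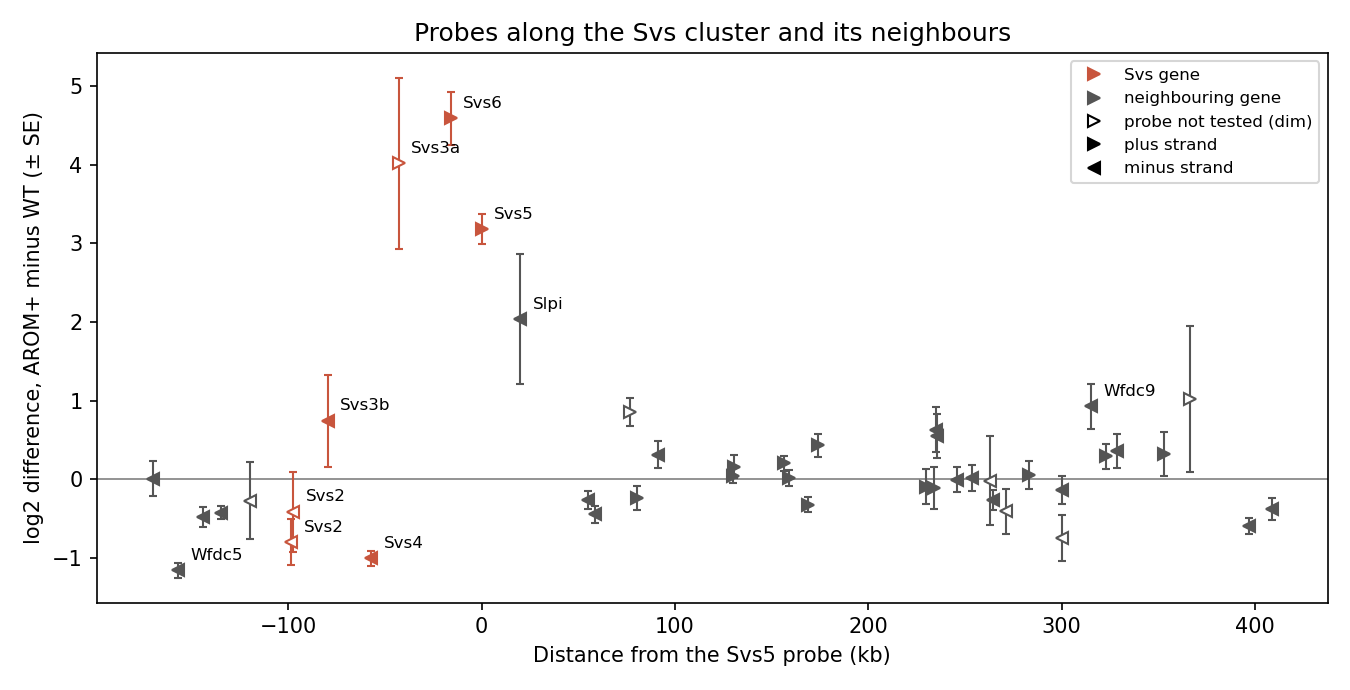
Difference between AROM+ and WT (log2, with SE bars, vertical axis) of each probe against its distance in kb from the Svs5 probe; triangles point along the gene's strand, red marks the Svs genes, and open triangles were too dim to be tested. Svs6 and Svs5 stand at 4.59 and 3.18, and the open triangle of Svs3a is a fitted value whose WT level was not well above background.

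The gene next after Svs5 is Slpi, which encodes secretory leukocyte protease inhibitor and was singled out after its values were seen. Its probe lies 19.9 kb from the Svs5 probe on the minus strand. It read −6.80, −3.70 and −5.69 in WT and −3.34, −4.34 and −2.40 in AROM+. WT replicate 2 lay within the AROM+ range, so the groups overlapped. The difference was 2.04 ± 0.82 (limma adjusted p = 0.0820), so Slpi was not called. It was called in 1 of 15 alternative settings, without WT replicate 2 (2.89, limma adjusted p = 0.0193), while the difference was 1.33 without WT replicate 1 (limma adjusted p = 0.203) and 1.89 without WT replicate 3 (limma adjusted p = 0.191).

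Of 26 neighbouring genes (Wfdc, Spint and others), 25 had a probe and 23 could be tested, and 2 rose and 3 fell, against 14.1% and 30.3% of all probes. The median difference of those tested was 0.02. Wfdc5, of the protease inhibitor-like WAP domain family, fell by 1.15 ± 0.09 (limma adjusted p = 0.00227), from −4.63 ± 0.08 to −5.78 ± 0.07. Wfdc12 fell by 0.47 ± 0.13 (limma adjusted p = 0.0260), and Wfdc15a, the remaining gene counted as lower, had a difference of −0.42 ± 0.09 (limma adjusted p = 0.0104). The count takes the brighter probe of a gene. The second probes of Wfdc3 (−0.59, limma adjusted p = 0.00748) and Matn4 (−0.44, limma adjusted p = 0.0203) were also lower. Their brighter probes, at −0.38 and −0.26, were not called. Wfdc9 rose by 0.93 ± 0.28 (limma adjusted p = 0.0362). Pigt, which encodes a part of the enzyme that attaches lipid anchors to proteins, rose by 0.43 ± 0.14 by its brighter probe (limma adjusted p = 0.0447), while its other probe differed by −0.32 (limma adjusted p = 0.0384). The calls on Wfdc12 and Wfdc9 were each lost in 6 of 15 alternative settings and that on Pigt in 8, and that on Wfdc5 in none.

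Other secretion genes of the seminal vesicle and prostate were read from a list of accessory gland genes. Of 12 genes, 11 could be tested, 0 rose and 4 fell by limma (0 and 4 at an unadjusted p under 0.05), against 14.1% higher and 30.3% lower of all probes. Their median difference was −0.22 and that of all probes −0.19. Azgp1, which encodes a zinc-binding secreted glycoprotein, fell by 3.16 ± 0.75 (limma adjusted p = 0.0166). Its probe was well above background on 3 WT arrays and on 2 of the 3 AROM+ arrays, so the size is imprecise, and it was −1.64 after normexp background correction. Without WT replicate 1 the difference of −2.81 was not called (limma adjusted p = 0.0539). Spinkl, a relative of serine protease inhibitors, was well above background on all WT arrays and on 0 AROM+ arrays (limma adjusted p = 0.0185). With each AROM+ array set to the larger of its reading and its floor, Spinkl was 1.54-fold lower, a rough size. Spinkl was not called when WT replicate 1 (−0.81), WT replicate 3 (−0.62) or AROM+ replicate 1 (−0.68) was left out.

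Probasin (Pbsn), an androgen-controlled prostate secretion, fell by 0.66 ± 0.20 (limma adjusted p = 0.0355), and the protease inhibitor Spink3 fell by 0.37 ± 0.10 (limma adjusted p = 0.0221). Their calls were lost in 7 and 10 of 15 alternative settings. Tgm4, the transglutaminase that crosslinks Svs proteins, read 0.76 ± 0.16 in WT and 0.90 ± 0.03 in AROM+ (limma adjusted p = 0.320). Sva, another seminal vesicle secretion, read −1.57 ± 0.11 and −1.78 ± 0.09 (limma adjusted p = 0.127). Pate4, also called Svs7, was not well above background on any array.

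**Figure D4:**
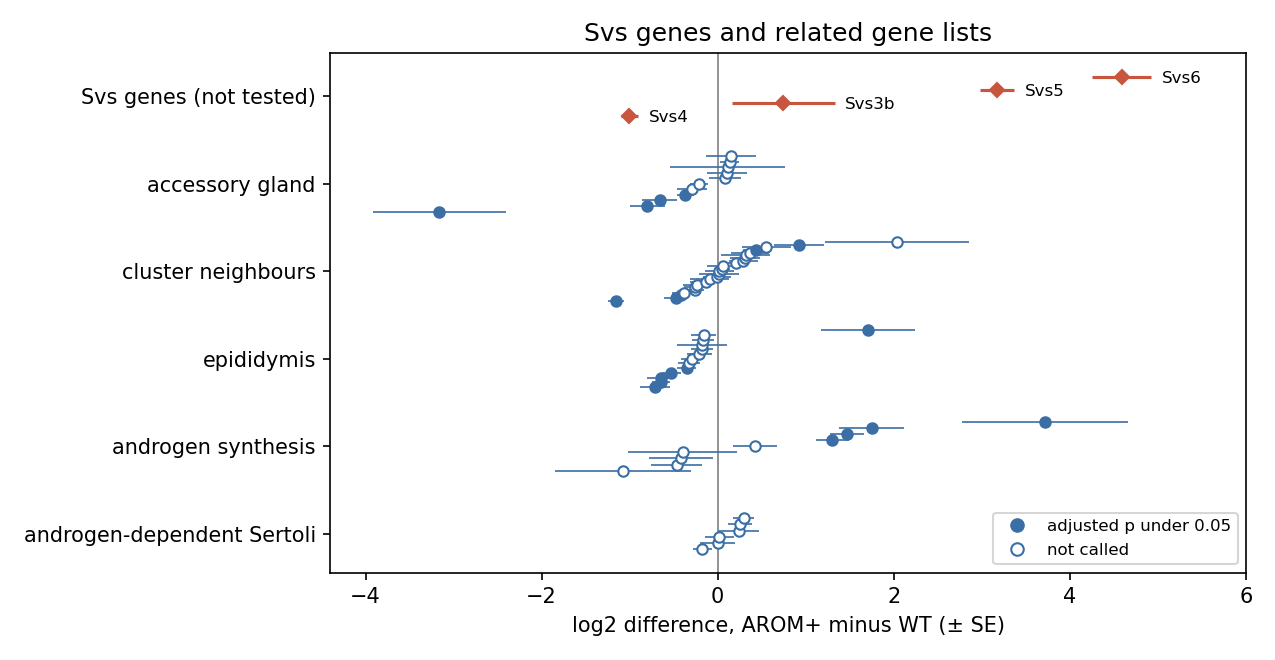
Difference between AROM+ and WT (log2, horizontal axis, with SE bars) of the 4 Svs probes that passed the filter on dim probes and of every tested gene of 5 lists; filled points had a limma adjusted p under 0.05. Svs6 and Svs5 lie to the right of the accessory gland genes, whose filled points are all to the left of 0.

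Markers of neighbouring tissue were read with the same scale, as the sum of signals relative to each array's 75th percentile. Over the 7 seminal vesicle markers (Svs2, Svs3a, Svs4, Svs5, Svs6, Pate4, Sva) the sum was 2.18 to 3.02 in WT and 17.7 to 24.4 in AROM+. It includes the members themselves, chosen on this contrast, so its rise is no separate reading of seminal vesicle tissue. Most of the sum is Svs5, at 0.89 in WT and 4.06 in AROM+, while Svs4 was lower in AROM+. Of the markers that are not members, Sva did not pass the test and Pate4 was never above background. Of 7 epididymis markers, 5 (Lcn5, Lcn8, Crisp4, Gpx5, Adam7) were never well above background, and the sum was 0.805 to 0.906 in WT and 0.567 to 0.671 in AROM+. Nearly all of that sum is Rnase10, at −0.27 in WT and −0.80 in AROM+ (limma adjusted p = 0.0110). Crisp1 read −5.97 and −6.15 (limma adjusted p = 0.638), so the sum speaks for Rnase10 and not for the markers as a set. The 4 prostate markers summed to 1.87 to 2.25 and 2.14 to 2.39. The 4 macrophage markers summed to 7.75 to 10.9 in WT and 19.5 to 31.4 in AROM+, with Cd68, Lyz2 and Tyrobp higher and Csf1r lower by the test. Csf1r, read by the brightest of its 3 probes, was the highest of the 4 in WT, at 2.47, and read 2.03 in AROM+. Among the AROM+ testes, replicate 2 had the lowest Lyz2, at 2.26 against 3.32 and 3.40, and the highest Svs5 and Svs6. Among the WT testes, replicate 2 had the highest Lyz2, at 0.76 against −0.01 and −0.15, and also the highest Svs5 and Svs6. The part of the macrophage signal in these differences was not tested.

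The epididymis list of 20 genes gave 13 that could be tested, of which 1 rose and 5 fell (median −0.29), beside 14.1% and 30.3% of all probes. Cst11, an epididymal cystatin, rose by 1.71 ± 0.53 (limma adjusted p = 0.0389), a call lost in 7 of 15 alternative settings. The carboxylesterase Ces5a fell by 0.71 ± 0.17 (limma adjusted p = 0.0167), the beta-defensin-like Spag11b fell by 0.65 ± 0.10 (limma adjusted p = 0.00562), and the lipocalin Lcn9 fell by 0.65 ± 0.16 (limma adjusted p = 0.0170). The Lcn9 probe was well above background on 3 WT arrays and on 1 AROM+ array, so its size is imprecise, and it was −0.28 after normexp (limma adjusted p = 0.0554). Ces5a was not called without WT replicate 1 (−0.62) or without WT replicate 3 (−0.62). Lcn9 was not called without WT replicate 3 (−0.64), after normexp, after quantile normalization (−0.54) or with spike-in scaling (−0.62).

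Because Svs genes depend on androgen in the seminal vesicle, the genes of androgen synthesis and its stimulation were read as well. Of 9 tested, 4 rose and 0 fell by limma (4 and 0 at an unadjusted p under 0.05; median 0.42), beside 14.1% and 30.3% of all probes. Lhcgr, the luteinizing hormone receptor, rose by 3.72 ± 0.94 (limma adjusted p = 0.0199), a call lost in 4 of the 6 fits that leave out a testis. Those fits gave 3.67 without WT replicate 1, 3.06 without WT replicate 3, 3.15 without AROM+ replicate 1 and 3.38 without AROM+ replicate 2. Cyp11a1, the enzyme of the first step of steroid synthesis, rose by 1.75 ± 0.37 (limma adjusted p = 0.0115). Srd5a1, a steroid 5-alpha reductase, rose by 1.47 ± 0.19 (limma adjusted p = 0.00434). Hsd3b1, a hydroxysteroid dehydrogenase, rose by 1.30 ± 0.19 (limma adjusted p = 0.00522).

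Of the steps between, Cyp17a1 differed by −0.42 (limma adjusted p = 0.370) and Hsd17b3, which makes testosterone, by −1.08 (limma adjusted p = 0.284). Leaving out WT replicate 2 gave −0.24 for Hsd17b3, leaving out AROM+ replicate 1 gave −0.62, and leaving out WT replicate 1 gave −1.75. Leydig markers (Star, Cyp17a1, Cyp11a1) summed to 10.6 to 21.9 in WT and 15.6 to 27.2 in AROM+. Of 6 androgen-dependent genes of Sertoli cells, 0 passed limma's threshold (1 higher and 0 lower at an unadjusted p under 0.05; median 0.13). The smallest p was that of Tubb3, a beta-tubulin, with a difference of 0.30 ± 0.12 (limma adjusted p = 0.0811), and Rhox5, a homeobox gene that answers to androgen in Sertoli cells, read 3.04 ± 0.14 in WT and 3.04 ± 0.39 in AROM+.

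The genes whose levels followed Svs5 most closely over the 6 arrays were ranked by Pearson's r. The Svs probes were left out, and Svs6 itself had an r of 0.992. Of 8635 other genes with a range of at least 1 on the log2 scale, clone names included, 61 had an r over 0.99. Both genotypes are in the same r, so the difference between genotypes enters it. Genes with clone or predicted names were passed over in naming the nearest 8. These were Lifr, a receptor of the cytokine LIF (0.998), Klhl26 (0.998), Tmem221 (0.997), the galanin receptor Galr2 (0.997), the ABC transporter Abcg4 (0.997), the mitochondrial valyl-tRNA synthetase Vars2 (0.997), Vstm2b (0.996) and the sulfhydryl oxidase Gfer (0.996). Their differences ran from 0.83 ± 0.10 for Klhl26 to 3.25 ± 0.20 for Vstm2b. By Spearman's rho, 1 of the 8 was again among the nearest 8 under the same rule.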

How the data were processed

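Total RNA of 3 WT and 3 AROM+ testes was hybridised to one-colour Agilent arrays. Per the file headers, the deposited intensities are processed signals of Agilent Feature Extraction 10.7.3.1 (10.10 per the submitters' processing notes). The authors also deposited a log2 table, which follows the log2 processed signals of each array up to a constant. Coordinates of probes are NCBI37/mm9 per the file headers.

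From the 62976 spots of each array, 3671 control spots and 123 to 192 outlier spots were left out. Log2 signals were taken relative to each array's 75th percentile, spots of a probe were averaged, and probes well above background on all 3 arrays of a group were kept. AROM+ was set against WT by limma 3.58.1 (R 4.3.3), with Benjamini-Hochberg adjustment over kept probes. The fit was tried on simulated independent noise with few changed probes. That setting is unlike these arrays, where many probes differed, so the trial does not check the calls. A gene was read by its kept probe of highest mean. Named were all Svs probes, Cyp19a1, and up to 4 called genes per list with the largest differences, or the smallest p where none was called. Slpi, Wfdc15a, Wfdc3, Matn4, Sva, Tgm4, Cyp17a1, Hsd17b3, Rhox5 and the markers named were added after their values were seen. A gene of the androgen list is not reported here. The members and lists were chosen with earlier results of these data known. The alternatives were normexp, other scalings, other filters, 1 probe per gene, eBayes with trend, the replicate block and leaving out each testis. The number of arrays limits the precision.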

Additional observations from a re-analysis of the deposited data

How the results depend on the processing

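Svs5, Svs6, Svs3a and Svs3b were higher and Svs4 lower in AROM+ in every alternative that gave a value, with ranges of 3.05 to 3.35 for Svs5 and 4.33 to 4.89 for Svs6. Svs4 was −0.87 and Svs3a 1.69 after normexp, whose offset compresses dim probes, and Svs4 was −0.90 when scaled on bright probes. Leaving out 1 testis gave −1.06 to −0.96 for Svs4, 3.04 to 5.29 for Svs3a and 0.17 to 1.40 for Svs3b. Of all probes, 8186 were called lower with bright-probe scaling and 5631 with spike-in scaling, and leaving out 1 testis gave 3825 to 5635 higher and 6735 to 11391 lower, with 3825 and 6735 without WT replicate 3 and 4021 and 7582 without WT replicate 1. Accessory gland genes called lower numbered 2 with normexp, with bright-probe scaling and with the filter on all 6 arrays, and 1 to 3 without 1 testis. Of the neighbours, 0 were called higher with no filter, 1 with median centring and 1 when the probes of a gene were averaged, and 0 to 2 without 1 testis, while 1 was called lower with spike-in scaling and 5 with averaged probes. Of the epididymis genes, 0 were called higher with no filter or spike-in scaling and 0 to 1 without 1 testis, and 3 (quantile) or 2 (spike-in) were called lower, 2 to 5 without 1 testis. Of the Sertoli genes, 1 was called higher with quantile or bright-probe scaling and 0 to 1 without 1 testis. Spearman's rho shared 1 of the 8 genes named as nearest. Spike-in scaling and median centring were chosen after seeing the data; beyond fewer arrays or other genes tested, the cause was not tested.

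With the replicate number as a block, 5090 probes were called higher and 9980 lower, and 1 neighbour was called higher. With the block the SE was 0.12 for Svs5, Svs6 and Svs4, against 0.19, 0.34 and 0.10 without it. For Svs3a it was 0.89 against 1.09, and for Svs3b 0.36 against 0.59. Deviations of testes with the same number correlated at 0.0536, −0.155 and 0.0446, and no testis correlated best with its own number. The number was also the slide column, and with 3 testes per group these correlations cannot decide whether the numbers pair the testes. Another flag of the files, for signals significantly above background, marked 36 of the 48 readings of Svs probes against 27.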
